A study of Homo sapiens with 3 samples.

Results

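The core autophagy genes are the 42 genes whose products start, build, load and deliver the autophagosome, and they were taken by name from the list of initiation, nucleation, membrane expansion, conjugation, ATG8 family, receptor and lysosomal control genes. Each of the 42 names matched 1 row among the 58735 genes in the count tables, and all 42 were among the 19849 genes that reached the minimum for testing, a sum of 10 counts over the libraries. They were measured by poly(A) RNA-seq in DU145, a human prostate cancer cell line that grows without androgen. The series holds 3 libraries: 1 labelled as the control, 1 labelled Knockdown1 and 1 labelled Knockdown2, the latter pair labelled as PD-L1 knockdowns, for which the study's RNA-seq section names cells sh1 and sh2 and its methods list 1 hairpin. According to the study's methods, knockdown cells were made with lentiviral pLKO.1 vectors and selected in puromycin as stable cells, with the empty vector as the control, although the RNA-seq section calls the control cells DU145 alone. The question was what a lower level of PD-L1, the ligand of the inhibitory receptor PD-1, does to the transcriptome. Values for the 3 libraries are given throughout in the order control, Knockdown1, Knockdown2.

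Autophagy is the delivery of cytoplasm to the lysosome in a double membrane. The ULK1 kinase complex starts it, a phosphatidylinositol 3-kinase complex marks the site, lipid transfer and scrambling proteins extend the membrane, and ubiquitin-like conjugation attaches the ATG8 family proteins to its lipid, where cargo receptors bind. Much of this control acts on proteins, through phosphorylation, cleavage and degradation, and DU145 is known for splicing of ATG5 that leaves little or no ATG5 protein, so RNA levels do not measure autophagy itself.

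The libraries held 14733088, 14738298 and 15786457 counts, so that an unseen gene could be present at up to 0.204, 0.204 and 0.190 CPM (3 counts). CD274, which encodes PD-L1, had 204, 213 and 224 counts, with a log2 fold change of 0.05 (SE 0.20, adjusted p = 0.947, edgeR quasi-likelihood test). The targeted RNA was thus not lower in either library labelled as a knockdown, and every direction given here rests on the labels. The study checked its stable knockdown cells, DU145 among them, by western blot for PD-L1 protein, which these counts do not measure. The labels name DMEM and the study's methods EMEM, the series text names BCPAP, a thyroid cancer line, and the control's counts stand under a column heading with the name RBM45. All 5 epithelial markers had counts (sums of 32106, 34994 and 37979), whereas 6 of 7 prostate luminal markers, KLK2 and KLK3 among them, were at 0 in every library. The thyroid markers summed to 1862, 2158 and 2644, of which NKX2-1 made 1833, 2118 and 2590, and the stromal and immune markers summed to 109, 112 and 157. The control had no replicate, and the labels do not say whether the libraries labelled Knockdown1 and Knockdown2 are replicates of 1 hairpin or separate hairpins, so p-values cover only the spread between these libraries, which were not copies of each other (chi-square of 5.29 per degree of freedom).

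No core autophagy gene passed an adjusted p of 0.05 in either direction. Across all genes tested, 0.247% were called higher and 0.106% lower by the quasi-likelihood test of edgeR after Benjamini-Hochberg adjustment, and of the 42 members 0 were higher and 0 lower. DESeq2 and limma voom also called 0 members, beside 0.0302% and 0.212% of all genes tested. At an unadjusted p under 0.05, 4 members were higher (TFE3, RUBCN, ATG101 and MAP1LC3A), which is 9.52% of the members against 6.82% of all genes tested, and 2 were lower (GABARAP and ATG5), which is 4.76% against 4.92%. Since 38 members have a mean of at least 100 counts, the background of genes so well counted is the closer match, and in it 3 of 38 members were higher (7.89%, against 9.08% of 10861 genes) and 1 was lower (2.63%, against 6.56%). DESeq2's Wald test gave 0 members at an unadjusted p under 0.05, beside 2.29% of all genes tested, and limma voom gave 4, beside 10.4%. With a log2 fold change beyond 1 in addition, 1 member was lower (GABARAP), against 0.942% of all genes tested, and 0 were higher, against 1.54%.

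The members' differences were small. Their median log2 fold change was 0.04, beside a median of 0.0015 over all genes tested, with 23 members above 0 and 19 below. With the trend in gene length removed these medians were 0.014 and 0.011. With all 29600 genes of at least 1 count in the fit they were 0.042 and 0.047, where the median of all genes had risen. In the other fits that keep all libraries the members' median stayed above that of all genes. The medians were 0.042 and 0.00025 with a minimum sum of 100, 0.041 and 0.0032 with DESeq2, and 0.034 and -0.010 with limma voom. Over the 10861 genes counted as well as most members, the main fit gave a median of 0.0031. Whether the members' median differs from that of other genes was not tested. Taken alone against the control, the library labelled Knockdown1 gave a median of -0.01 and the library labelled Knockdown2 a median of 0.05. For 40 of the 42 members the 95% interval of the fold change lay inside a 2-fold change in either direction. The same was true of 12029 of the 19849 genes tested. Among the 10861 well-counted genes (mean of 100 or more) it was true of 10711. The count of 40 thus does not set the members apart from other well-counted genes. The members not inside were GABARAP, with an interval from -2.67 to -0.23 on the log2 scale, and MAP1LC3A, with an interval from 0.02 to 1.13. With DESeq2 the number of members inside was 36. These intervals use a spread estimated with 1 residual degree of freedom per gene and shared among genes, and they hold no variation between control cultures.

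**Figure D1:**
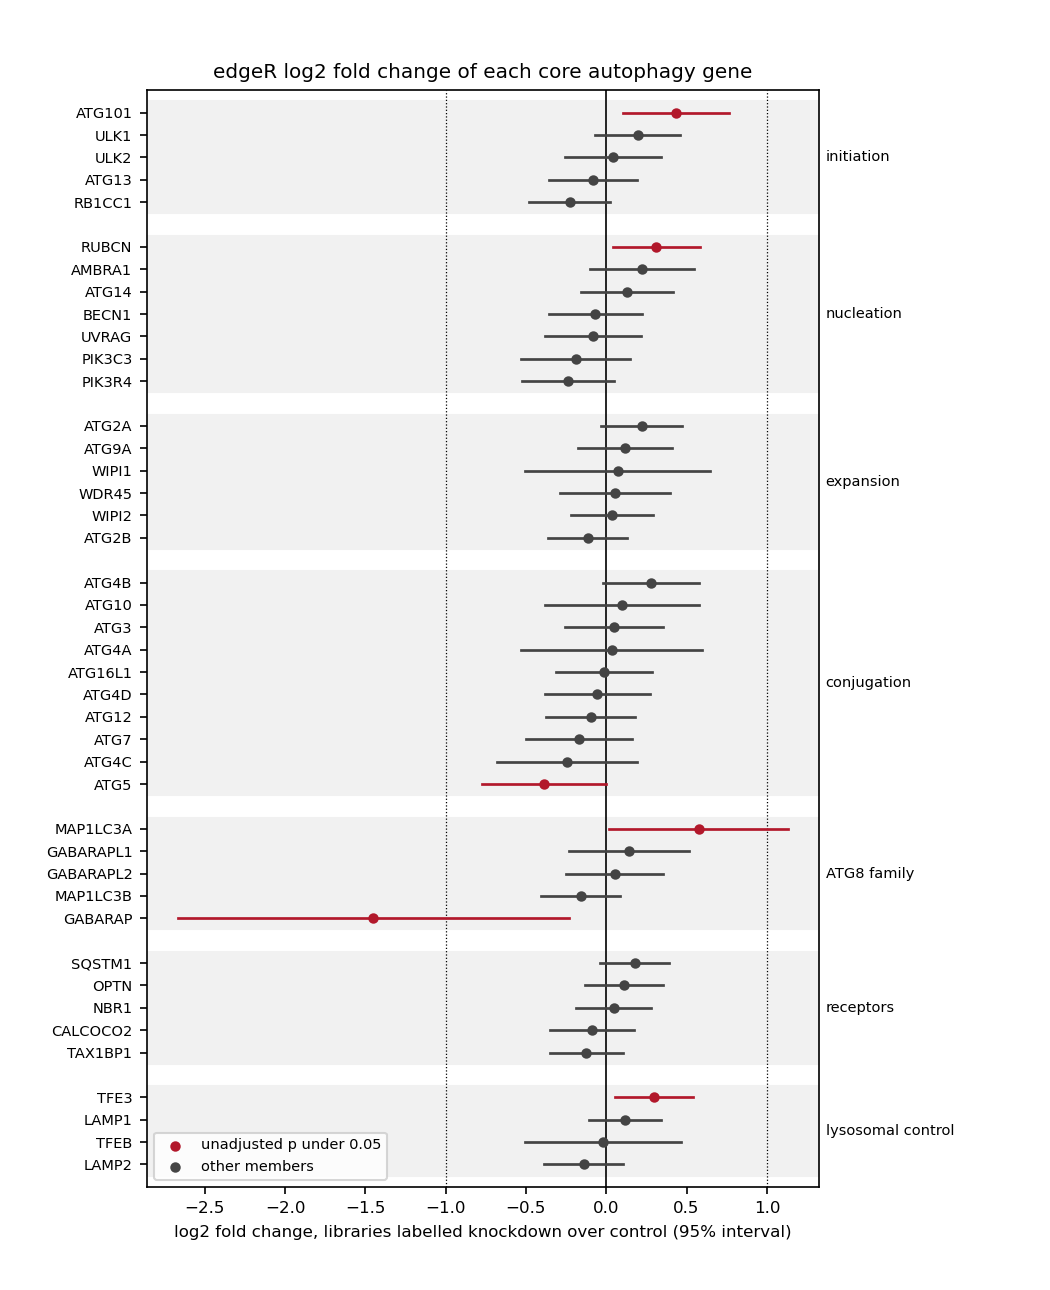
Fitted log2 fold change of each core autophagy gene (horizontal axis) by role, libraries labelled knockdown over the control, with bars for the 95% interval of edgeR's quasi-likelihood fit and dotted lines at a 2-fold change. The 6 members with an unadjusted p under 0.05 are in red, GABARAP stands apart at -1.45, and the intervals of 40 members stay between the dotted lines.

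The levels of the genes spanned a wide range. FPKM, which divides counts by gene length and library size, allows levels of different genes to be compared. The members' median was 7.14, 7.29 and 7.22 FPKM, beside 2.61, 2.59 and 2.57 FPKM over all genes tested, and 36, 35 and 35 of the 42 were above that overall median. Over 10 FPKM were 12, 15 and 16 members, and under 2 FPKM were 6, 6 and 5. Together the members took 0.295%, 0.301% and 0.307% of all counts, and SQSTM1 alone made 18.2%, 19.6% and 20.3% of the members' counts. The order at the top began with SQSTM1 and LAMP1 in all 3 libraries, and GABARAP was at rank 42 in all 3. For GABARAP, 55.7% of exon bases lie in exons of other genes, and how this bears on its FPKM was not tested. Below LAMP1 the order was less fixed: TAX1BP1, TFE3, OPTN, MAP1LC3B, NBR1 and LAMP2 held ranks 3 to 8 in each library but in changing order. The ranges of TAX1BP1, TFE3 and OPTN over the 3 libraries overlapped one another, and that of MAP1LC3B overlapped those of NBR1 and LAMP2. In bulk RNA, fewer cells expressing a gene and less RNA per cell cannot be told apart.

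**Figure D2:**
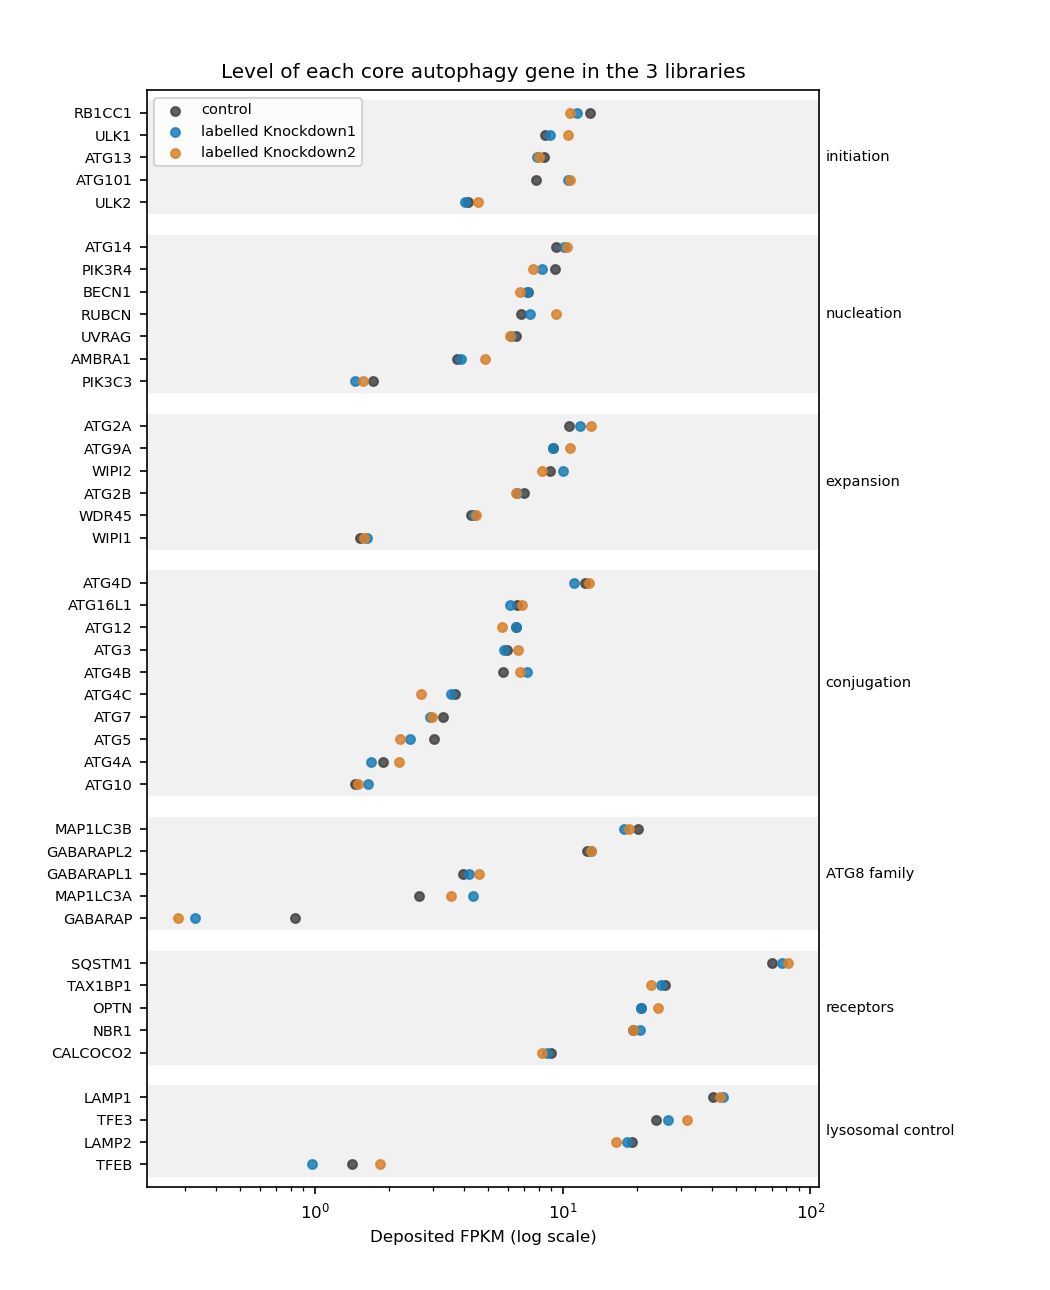
Deposited FPKM of each core autophagy gene (horizontal axis, log scale) in the control library and the libraries labelled Knockdown1 and Knockdown2, 1 point per library, grouped by role. SQSTM1 lies highest, at 69.7 to 81.5 FPKM, and for most genes the 3 points lie close together. GABARAP, whose exons overlap those of other genes, lies lowest, at 0.279 to 0.832 FPKM.

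Initiation depends on the ULK1 kinase, its scaffold RB1CC1 (also FIP200), and ATG13 with its partner ATG101. ATG101 (chr12:52069246-52077494, plus strand, GRCh38) had 372, 499 and 539 counts. Both libraries labelled as knockdowns were above the control and close to each other. Its log2 fold change was 0.43 (SE 0.17, unadjusted p = 0.00986, adjusted p = 0.263, edgeR quasi-likelihood test), which was the smallest adjusted p of the members. The exons of the antisense gene AC025259.1 cover 19.2% of its exon bases and 53.0% of its coding bases, and AC025259.1 was listed at 0 counts in all libraries; whether counting used the strand is not stated. ATG13 and ATG101 stabilise each other as proteins, yet ATG13 had 871, 812 and 887 counts, with a log2 fold change of -0.08 (SE 0.14). ULK1 had 955, 999 and 1266 counts, with a log2 fold change of 0.20 (SE 0.14). Its difference lay mostly in the library labelled Knockdown2, where it was 1.24 times the control (95% counting interval 1.14 to 1.35), against 1.05 (0.961 to 1.15) in the other. RB1CC1 had 1460, 1288 and 1283 counts, below the control in both, with a log2 fold change of -0.23 (SE 0.13). The related kinase ULK2 had 609, 590 and 709 counts, with a log2 fold change of 0.04 (SE 0.15). The median over the 5 initiation genes was 0.04.

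Nucleation is the task of the lipid kinase PIK3C3 (VPS34), its regulatory subunit PIK3R4, and BECN1, which joins either ATG14 for autophagosomes or UVRAG for later steps; RUBCN binds the UVRAG form and restrains it. RUBCN (chr3:197671393-197749727, minus strand, GRCh38) had 865, 944 and 1283 counts. The library labelled Knockdown2 was the high one. The log2 fold change of RUBCN was 0.31 (SE 0.14, unadjusted p = 0.0232, adjusted p = 0.345, edgeR quasi-likelihood test). Its ratio to the control was 1.10 (95% counting interval 0.998 to 1.20) in the library labelled Knockdown1 and 1.39 (1.27 to 1.51) in the library labelled Knockdown2. AMBRA1, which links BECN1 to the cytoskeleton and to ubiquitin ligases, stood in the same order with 427, 443 and 589 counts, with a log2 fold change of 0.22 (SE 0.16). The kinase subunits lay on the other side of 0: PIK3C3 had 386, 326 and 374 counts and PIK3R4 744, 658 and 644, with log2 fold changes of -0.19 (SE 0.17) and -0.24 (SE 0.15). BECN1 had 693, 680 and 685 counts, UVRAG 614, 580 and 617, and ATG14 703, 758 and 831. Their log2 fold changes of -0.07, -0.08 and 0.13 were each smaller than the standard error (0.15 for each). The median of the 7 nucleation genes was -0.07, the lowest of the roles.

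Expansion of the membrane needs the lipid transfer proteins ATG2A and ATG2B, the scramblase ATG9A, and the phosphoinositide-binding WIPI proteins, WDR45 (WIPI4) among them. ATG2A had 1235, 1364 and 1615 counts, with a log2 fold change of 0.22 (SE 0.13), whereas its paralogue ATG2B had 1538, 1423 and 1510 and -0.12 (SE 0.13). The difference between the paralogues was not tested. WIPI2, which recruits ATG16L1, had 1187, 1331 and 1173 counts. The libraries labelled as knockdowns thus lay on either side of the control, with ratios of 1.13 (95% counting interval 1.04 to 1.22) and 0.923 (0.851 to 1.00), and the fitted log2 fold change was 0.03 (SE 0.13). ATG9A had 642, 641 and 799 counts (log2 fold change 0.12, SE 0.15), WDR45 345, 355 and 386 (0.06, SE 0.17), and WIPI1 77, 82 and 85 (0.07, SE 0.29). ATG9A shares 38.8% of its exon bases with AC068946.2 on the same strand, which had 6, 5 and 1 counts. WDR45 shares 13.9% with PRAF2, also on its strand, which had 8, 5 and 13 counts. Of the 6 expansion genes, 5 were above 0, and 0 had an unadjusted p under 0.05, although ATG2A reached 0.0425 with the trend in gene length removed.

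Conjugation runs through ATG7, the E1-like enzyme, the E2-like enzymes ATG3 and ATG10, and the ATG12, ATG5 and ATG16L1 complex, while the ATG4 proteases prime and recycle the ATG8 proteins. ATG5 (chr6:106045423-106325791, minus strand, GRCh38) had 254, 203 and 198 counts. Both libraries labelled as knockdowns were below the control, with ratios of 0.803 (95% counting interval 0.664 to 0.969) and 0.728 (0.602 to 0.880). The log2 fold change was -0.39 (SE 0.20, unadjusted p = 0.0499, adjusted p = 0.426, edgeR quasi-likelihood test). That unadjusted p lay at the limit. It was 0.0480 to 0.0560 in edgeR with other settings, 0.0643 with limma voom and 0.238 with DESeq2's Wald test. No exon of ATG5 overlaps another gene. Its partners differed less: ATG12 had 859, 854 and 802 counts (log2 fold change -0.10, SE 0.14) and ATG16L1 588, 549 and 656 (-0.01, SE 0.15). Of the enzymes, ATG7 had 433, 381 and 415 counts (-0.17, SE 0.17), ATG3 541, 523 and 635 (0.05, SE 0.16) and ATG10 118, 132 and 129 (0.10, SE 0.24). Each of these lay within about 1 standard error of 0.

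The 4 ATG4 proteases did not share a direction. ATG4B, the protease with the broadest action on ATG8 proteins, had 564, 704 and 707 counts, with a log2 fold change of 0.28 (SE 0.15, unadjusted p = 0.0684, adjusted p = 0.470, edgeR quasi-likelihood test). ATG4C had 170, 163 and 132 counts (-0.25, SE 0.22), ATG4D 418, 373 and 460 (-0.05, SE 0.17) and ATG4A 82, 73 and 101 (0.03, SE 0.29). Only ATG4B among them had counting intervals above 1 in both libraries, with ratios of 1.25 (95% counting interval 1.12 to 1.40) and 1.17 (1.05 to 1.31). ATG4A at 1.69 to 2.18 FPKM and ATG10 at 1.46 to 1.64 FPKM were the least abundant conjugation genes, against 11.1 to 12.8 FPKM for ATG4D. Counts per gene do not show which transcript they come from, so splicing of ATG13 or ATG4D was not analysed here. The study itself reported splicing changes from its sequencing data, mostly enriched in pathways of autophagy. It followed some of them by RT-PCR and named ATG13 among these. The median of the 10 conjugation genes was -0.03.

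The ATG8 family proteins are the lipid-linked handles of the autophagosome, in an LC3 branch (MAP1LC3A, MAP1LC3B) and a GABARAP branch (GABARAP, GABARAPL1, GABARAPL2). GABARAP (chr17:7240014-7242770, minus strand, GRCh38) had 28, 11 and 10 counts, or 0.832, 0.328 and 0.279 FPKM. The control was the high library, and the others were close to each other. The ratios to the control were 0.395 (95% counting interval 0.177 to 0.818) and 0.334 (0.145 to 0.707), and the log2 fold change was -1.45 (SE 0.62, unadjusted p = 0.0199, adjusted p = 0.330, edgeR quasi-likelihood test). GABARAP was also the member that most overlaps other genes: 55.7% of its exon bases lie in exons of others. One, AC120057.2 (chr17:7240427-7244635), is annotated on the same strand and was listed at 0 counts in all libraries. The other, AC120057.3 (chr17:7242200-7243814), is annotated on the opposite strand and had 7, 25 and 19 counts, lowest in the control, where GABARAP was highest. The counts of GABARAP and AC120057.3 together were 35, 36 and 29. The part of this overlap in the GABARAP counts was not tested.

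To show how much of the gene is shared, the first 240 coding bases of transcript GABARAP-201 are given in the sense of the transcript, joined across introns (chr17:7241390-7242330, minus strand, GRCh38). Capitals mark the 150 of these bases that also lie in exons of AC120057.2. Of all 351 coding bases, 261 lie in AC120057.2 and the first 90, in lower case, in AC120057.3, so that every coding base of this transcript lies in an exon of another gene.
GABARAP-201: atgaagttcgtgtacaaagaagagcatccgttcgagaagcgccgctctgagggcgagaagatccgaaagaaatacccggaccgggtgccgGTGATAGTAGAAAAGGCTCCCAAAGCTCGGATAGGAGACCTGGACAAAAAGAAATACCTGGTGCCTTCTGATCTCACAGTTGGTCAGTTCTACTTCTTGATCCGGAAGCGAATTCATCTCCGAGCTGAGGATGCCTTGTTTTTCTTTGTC

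The other ATG8 genes had more counts and smaller differences. MAP1LC3A (chr20:34546854-34560345, plus strand, GRCh38), an LC3 gene with no exon in another gene, had 69, 113 and 99 counts. Both libraries labelled as knockdowns were above the control. Its log2 fold change was 0.57 (SE 0.29, unadjusted p = 0.0441, adjusted p = 0.410, edgeR quasi-likelihood test). MAP1LC3B, with the highest FPKM of the family at 17.7 to 20.1, had 1588, 1387 and 1553 counts, with a log2 fold change of -0.16 (SE 0.13). It shares 5.92% of its 31-base words with MAP1LC3B2, a near-identical copy that had 53, 32 and 52 counts. GABARAPL2 had 564, 584 and 624 counts (0.05, SE 0.15) and GABARAPL1 241, 254 and 296 (0.14, SE 0.19). In the control, MAP1LC3B at 20.1 FPKM and GABARAPL2 at 12.5 FPKM lay well above MAP1LC3A at 2.64 FPKM, and that order was the same in the other libraries. GABARAP is left out of this order, since 55.7% of its exon bases lie in other genes. How that bears on its counts was not tested.

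The receptors carry ubiquitinated cargo to the ATG8 proteins. SQSTM1 (p62; chr5:179806398-179838078, plus strand, GRCh38) is both a receptor and a substrate of autophagy, and it had 7917, 8672 and 9856 counts. The values stand in the order control, Knockdown1, Knockdown2, with ratios of 1.10 (95% counting interval 1.07 to 1.13) and 1.16 (1.13 to 1.20). The fitted log2 fold change was 0.18 (SE 0.11, unadjusted p = 0.103, adjusted p = 0.532, edgeR quasi-likelihood test). That standard error uses a spread shared among genes and is not the spread of SQSTM1 alone. The SQSTM1 ratio of the library labelled Knockdown2 to the library labelled Knockdown1 was 1.06 (95% counting interval 1.03 to 1.09). SQSTM1 overlaps other genes, mainly MRNIP on the opposite strand (406, 399 and 459 counts), in 22.0% of its exon bases. TAX1BP1, a receptor for ubiquitinated proteins, had 3521, 3385 and 3278 counts (-0.12, SE 0.12), and NBR1, which works with SQSTM1, had 2396, 2552 and 2550 (0.05, SE 0.12). OPTN, a receptor in mitophagy and in defence against bacteria, had 1584, 1576 and 1964 counts (0.11, SE 0.12), and CALCOCO2 (NDP52), of similar use, 1112, 1069 and 1086 (-0.09, SE 0.13). None of the 5 receptors had an unadjusted p under 0.05, although SQSTM1 reached 0.0483 with the trend in gene length removed.

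Lysosomal control is represented by TFEB and TFE3, transcription factors that raise lysosomal and autophagy genes when mTORC1 is inactive, and by the lysosomal membrane proteins LAMP1 and LAMP2. TFE3 (chrX:49028726-49043486, minus strand, GRCh38) had 1510, 1691 and 2152 counts, with the library labelled Knockdown2 the highest. Its log2 fold change was 0.30 (SE 0.12, unadjusted p = 0.0171, adjusted p = 0.312, edgeR quasi-likelihood test). The ratios were 1.12 (95% counting interval 1.05 to 1.21) and 1.33 (1.25 to 1.42). TFEB (chr6:41683978-41736259, minus strand, GRCh38) was scarce beside TFE3, with 1.42, 0.970 and 1.83 FPKM against 23.7, 26.7 and 31.8. It had 119, 81 and 163 counts, and the control lay between the others. The ratio to the control was 0.684 (95% counting interval 0.509 to 0.914) in the library labelled Knockdown1 and 1.28 (1.00 to 1.63) in the library labelled Knockdown2. Averaged in the fit, TFEB had a log2 fold change of -0.02 (SE 0.25). LAMP1 had 3433, 3763 and 3923 counts (0.12, SE 0.12) and LAMP2 1561, 1484 and 1435 (-0.14, SE 0.13), on opposite sides of 0 and each within about 1 standard error of it.

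TFEB and TFE3 bind the E-box core CACGTG, within the longer CLEAR element, taken as the core with GT before it and AC after it. The members' promoters were therefore searched for both in the 300 bases from 250 before to 50 after each RefSeq start (GRCh38.p14). Both are palindromes, so 1 strand covers both, and each CLEAR match would contain a core. RefSeq promoters were given for 37 of the 42 members. The core was found in 3 of the 37 (8.11%, namely ATG3, ATG14 and LAMP1), beside 8.78% of 27305 genes, and the longer element in 0 of the 37, beside 0.421%. Only exact letters were counted, so near matches to the longer element are not in these shares. The stretches around the cores before the start are printed to show their spacing, with the cores in capitals. LAMP1 (chr13:113297007-113297238, plus strand) stands out by number, with 5 cores before the start and 6 in the window, while ATG3 (chr3:112561963-112562020, minus strand) and ATG14 (chr14:55411831-55411891, minus strand) have 1 before the start. The log2 fold changes of these 3 genes were 0.12, 0.05 and 0.13. A match is only a match of letters and was not read as a binding site.
LAMP1: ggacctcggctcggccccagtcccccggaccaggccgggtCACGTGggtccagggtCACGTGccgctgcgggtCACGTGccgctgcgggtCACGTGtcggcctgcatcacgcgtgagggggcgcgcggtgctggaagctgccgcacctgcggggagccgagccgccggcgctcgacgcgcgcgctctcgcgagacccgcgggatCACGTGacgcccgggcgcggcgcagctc
ATG3: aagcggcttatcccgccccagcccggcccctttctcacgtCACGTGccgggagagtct
ATG14: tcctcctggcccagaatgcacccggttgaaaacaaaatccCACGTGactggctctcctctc

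Each library labelled as a knockdown was also set against the control alone, by the ratio of normalised counts with an exact 95% counting interval. The interval treats reads as independent and covers only the counting error of reads. Amplified reads that carry no molecular identifier may be copies of 1 molecule, for which the interval makes no allowance. The ratio compares libraries, not conditions. A mean count of at least 100 was reached by 10861 genes, 38 of them members. In the library labelled Knockdown1, the interval lay above 1 for 8 members, which is 21.1% beside 22.2% of all these genes, and below 1 for 7, which is 18.4% beside 18.4%. In the library labelled Knockdown2 it lay above 1 for 12 members (31.6% beside 28.6%) and below 1 for 10 (26.3% beside 27.6%). The members' shares were thus near the background in both. The control library is shared by both sets of ratios. Between the libraries labelled as knockdowns, 11 members were higher in the one labelled Knockdown2 (28.9% beside 18.1%) and 6 lower (15.8% beside 19.4%). TFEB had the largest such ratio among these members, 1.87 (95% counting interval 1.42 to 2.47), and RUBCN, AMBRA1, TFE3 and ULK1 followed among those higher in that library at 1.26, 1.24, 1.18 and 1.18. At the other end were ATG4C at 0.753 and WIPI2 at 0.819. These ratios of 1 library to 1 library have no replicate check.

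**Figure D3:**
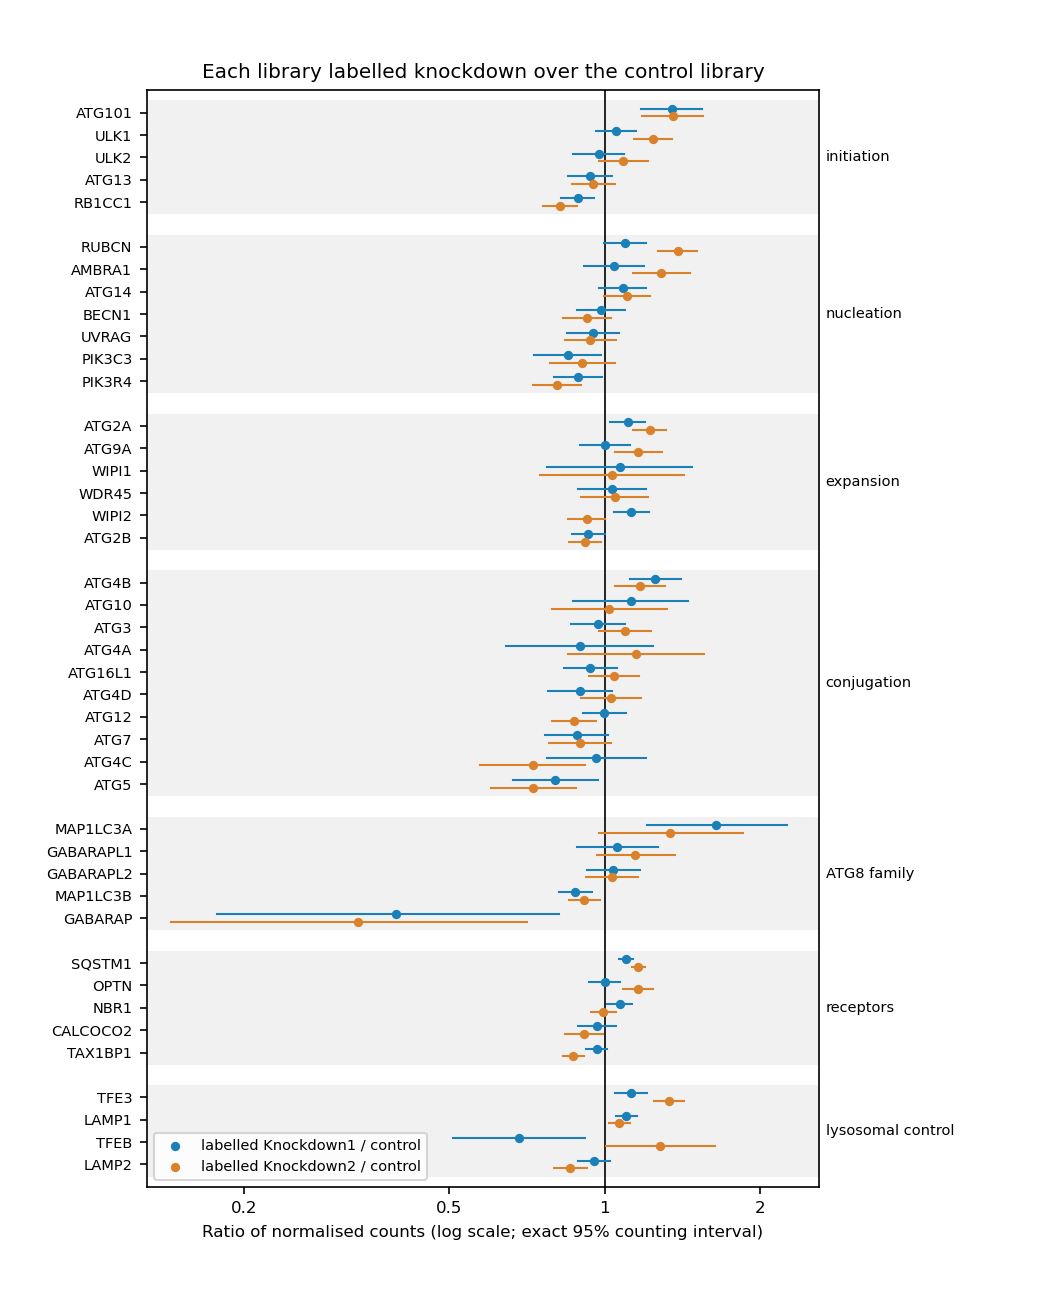
Ratio of normalised counts (horizontal axis, log scale) of the libraries labelled Knockdown1 and Knockdown2 to the control for each core autophagy gene by role, with bars for the exact 95% counting interval. GABARAP lies lowest in both, MAP1LC3A reaches 1.64 in the library labelled Knockdown1, and TFEB and WIPI2 lie on opposite sides of 1 in the 2 libraries.

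Genes that act around the core machinery were described from 6 lists with 120 genes, of which 118 were tested. None had an adjusted p under 0.05 in edgeR's quasi-likelihood test, and 18 were higher and 6 lower at an unadjusted p under 0.05, beside 6.82% and 4.92% of all genes tested. Of the 111 genes whose mean count was at least 100, the same 18 and 6 are 16.2% and 5.41%, beside 9.08% and 6.56% of all genes so well counted. DESeq2 and limma voom also gave 0 at the adjusted p, beside 0.0302% and 0.212% of all genes tested. At the unadjusted p DESeq2 gave 5 higher and 1 lower (4.24% and 0.847%), and limma voom 16 higher and 5 lower (13.6% and 4.24%). Over all genes tested, both directions together, the shares were 2.29% with DESeq2 and 10.4% with limma voom. The median log2 fold change of the 118 genes was 0.08. The values given are for the 2 genes of each list with the largest difference among those whose mean count was at least 100. Counts of higher and lower genes per list, given below, are from edgeR and have the same background of 6.82% and 4.92% of all genes tested. No list was tested as a set.

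Upstream, the nutrient and energy kinases (mTORC1, its Rag and TSC regulators, and AMPK) had 5 genes higher and 3 lower of 27 at an unadjusted p under 0.05, with a median of 0.09. AKT1S1, the PRAS40 inhibitor of mTORC1, had 987, 1245 and 1522 counts, with a log2 fold change of 0.44 (SE 0.13, adjusted p = 0.116, edgeR quasi-likelihood test, the smallest of the 6 lists). RRAGD, a Rag GTPase that recruits mTORC1 to the lysosome, had 133, 163 and 234 counts and 0.53 (SE 0.22). The 3 lower genes, named after their values were seen, were the catalytic AMPK subunits PRKAA1 (2986, 2595 and 2513 counts) and PRKAA2 (714, 563 and 550) and the Rag GTPase RRAGC (249, 187 and 196), with log2 fold changes of -0.27, -0.40 and -0.43. Beside the core members, other autophagosome formation genes had 3 higher and 0 lower of 17 tested, with a median of 0.01. TP53INP2, a nuclear protein that moves to autophagosomes, had 408, 484 and 626 counts (0.39, SE 0.16), and TECPR1, which acts in autophagosome maturation, 367, 402 and 564 (0.34, SE 0.17).

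Downstream, fusion with the lysosome had 2 genes higher and 0 lower of 13, with a median of 0.09. VAMP8, the SNARE on the lysosome side, had 192, 257 and 335 counts (0.57, SE 0.20, adjusted p = 0.193, edgeR quasi-likelihood test), and the tether adaptor PLEKHM1 725, 786 and 1041 (0.28, SE 0.14). The lysosomal hydrolases and membrane proteins had 5 higher and 0 lower of 29, with a median of 0.10. ARSA, which desulfates sulfatide, had 295, 370 and 444 counts (0.41, SE 0.18) and the acid sphingomyelinase SMPD1 164, 193 and 282 (0.48, SE 0.21). The vacuolar ATPase, which acidifies the lysosome, had 1 higher and 0 lower of 17, with a median of 0.03. Its subunit ATP6V1F had 577, 762 and 894 counts (0.47, SE 0.15, adjusted p = 0.137, the same edgeR test) and ATP6V0B 630, 692 and 833 (0.23, SE 0.15). All these genes were named for the size of their difference, so the control stands at 1 end of their values by that choice.

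Receptors for organelles had 2 genes higher and 3 lower of 15 tested, with a median of 0.02. PINK1, the kinase that marks damaged mitochondria, had 291, 353 and 518 counts, with a log2 fold change of 0.53 (SE 0.18, adjusted p = 0.177, edgeR quasi-likelihood test). RETREG1 (FAM134B), a receptor for the endoplasmic reticulum, had 140, 102 and 101 counts and -0.51 (SE 0.25). MAP1LC3C, another LC3 gene from the autophagosome formation list, had 0, 1 and 2 counts, under the minimum for testing.

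**Figure D4:**
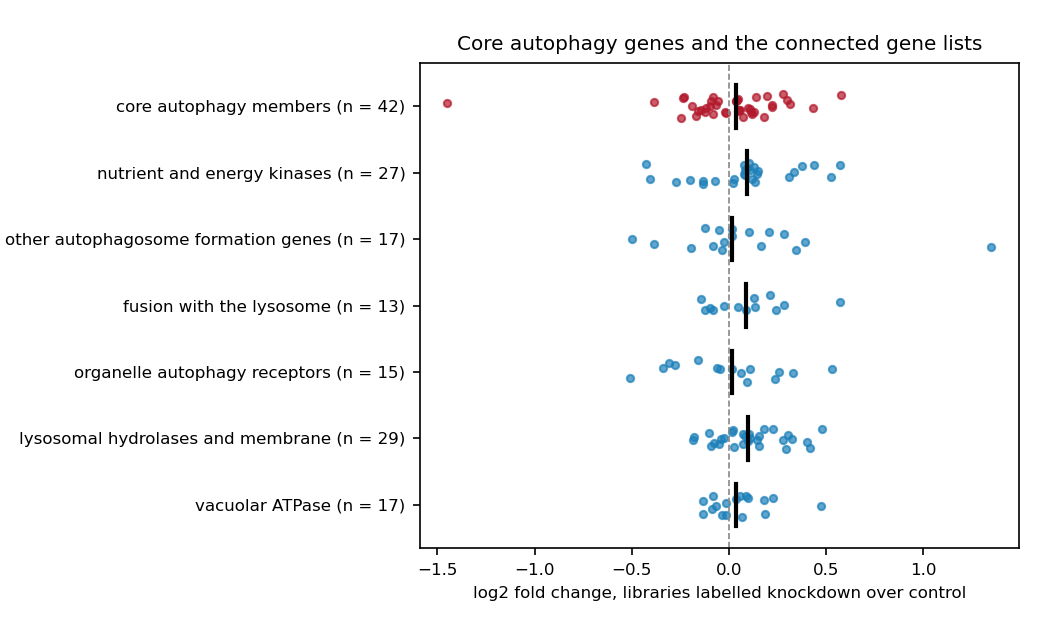
Fitted log2 fold change (horizontal axis, libraries labelled knockdown over control) of each tested gene in the core autophagy list and in 6 lists of connected genes, 1 point per gene, with a black bar at the median of each list. The medians lie between 0.01 and 0.10, and the points beyond 1 in either direction are GABARAP at -1.45 and ATG9B, with 2, 3 and 8 counts, at 1.35.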

How the data were processed

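RNA-seq of 3 DU145 libraries was used. The authors deposited, per gene and library, unnormalised read counts and FPKM. Bowtie2 2.0.6, TopHat2 2.0.9, Cufflinks 2.1.1 and Cuffdiff 2.1.1 stand in the submitters' processing notes; the counting tool, its use of strand and the build are not given in the sources used here, but all 42 members' positions equal GENCODE v29 (GRCh38). The deposited FPKM were checked to be count divided by gene length and 1 constant per library (100% of values within 0.1%), so they add nothing to the counts. Groups came from the sample labels. Genes with at least 10 summed counts were fitted with edgeR 4.0.16 (R 4.3.3; TMM, glmQLFit, glmQLFTest; common dispersion 0.00719, 1 residual degree of freedom) and adjusted by Benjamini-Hochberg over all 19849 genes. The volcano threshold (unadjusted p under 0.05, log2 fold change beyond 1) was that of the study. DESeq2 1.42.0, limma 3.58.1 (voom), other size factors, count minimums, removal of the trend with gene length in 20 classes and leaving out each library labelled as a knockdown were alternatives; the background over genes whose mean count was at least 100, at the unadjusted p, was added after seeing the data.

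On simulated data with 2 libraries against 1 (19385 genes), edgeR recovered 95% of 2-fold and 100% of 4-fold changes among genes of at least 100 counts, with 4 unchanged genes called; DESeq2 recovered 68% and 100%, with 0, and voom 93% and 100%, with 22. Every simulated gene had the common dispersion of 0.00719, with no added variation between control and knockdown cultures. These rates hold for that setting and may not carry over to the real libraries. Counting intervals were exact (Clopper-Pearson, TMM library sizes). Overlap and shared 31-base words were computed from GENCODE v29 exons and transcripts: 20 members had no exon base in another gene, 9 had over 10%, and 3 shared over 10% of their words. Named genes were all members, the targeted gene, genes overlapping or near-identical to members, and for each pathway list those with an adjusted p under 0.05 plus the 2 largest differences with a mean of at least 100 counts. ATG9B, MAP1LC3C, RRAGC, PRKAA1, PRKAA2 and individual marker genes were named after their values were seen. The members and lists were chosen with earlier results of these data known. A few values of listed genes are not reported here.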

Additional observations from a re-analysis of the deposited data

How the results depend on the processing

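The number of members with an adjusted p under 0.05 was 0 in every alternative that gives a test. These fits called from 0.0302% (DESeq2 Wald test) to 0.466% (at least 100 summed counts) of all genes tested. The 6 members at an unadjusted p under 0.05 became 3 when genes needed at least 100 summed counts (41 members tested). They became 0 with the DESeq2 Wald test, 4 with limma voom, and 8 with the trend in gene length removed. The shares of all genes tested were 11.7%, 13.7%, 2.29%, 10.4% and 11.1%, in that order. With DESeq2 size factors and with genes of at least 1 summed count the 6 members became 5, beside 11.7% and 8.05% of all genes tested. ATG5 left in both (unadjusted p = 0.0514 and 0.0560, edgeR). With the trend removed, MAP1LC3A (unadjusted p = 0.0625, edgeR) left and ATG2A, ATG4B and SQSTM1 (0.0425, 0.0378 and 0.0483) came in. The 1 member past the volcano threshold (beside 2.48% of all genes tested) became 0 with the minimum of 100 (beside 0.413%) and with DESeq2 (beside 0.232%). GABARAP has too few counts for that minimum. The median log2 fold change of 0.04 was 0.014 with the trend in gene length removed and ranged from -0.011 without the library labelled Knockdown2 to 0.045 without the library labelled Knockdown1, values without a test, since no residual degrees of freedom remain. TFEB moved most with a library left out, from -0.54 without the library labelled Knockdown2 to 0.35 without the library labelled Knockdown1. With the trend in gene length removed, ATG4A turned from 0.03 to -0.0084 and ATG16L1 from -0.01 to 0.0082, both far inside their standard errors; no other member changed sign in an alternative that keeps all libraries. DESeq2 size factors and library totals moved no member by more than 0.0042. No paired analysis was possible because the control has 1 library and no replicate number. Precision is least for GABARAP, with 10 to 28 counts, and for WIPI1, ATG4A and MAP1LC3A, also with a mean under 100 counts; why GABARAP has so few was not tested.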
